A study of Mus musculus with 18 samples.

Results

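The regions described here were the 641 autosomal DMC1 sites that began within 10 Mb of the last listed end of their chromosome, of 9132 sites in the shared DMC1 list (8744 of them on the 19 autosomes). Within that list they were chosen by position alone, and no column value entered the rule. The list is labelled as common to the compared genotypes, so a site missing in any of them is not covered. Listed sites also set the last end of each chromosome. The chosen regions are called distal sites below. They were set against the 6145 interior sites, which lay more than 20 Mb from both the first listed start and the last listed end, and, where useful, against the 659 proximal sites within 10 Mb of the first listed start.

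DMC1 ChIP-seq, H3K4me3 and H3K36me3 were measured in spermatocytes of mice aged 14 days post-partum. DMC1 was profiled in C57BL/6J controls (B6), in a conditional Ewsr1 knockout made with the germ cell driver Stra8-iCre (Ewsr1 CKO), and in Prdm9+/- animals with a single intact Prdm9 copy (Prdm9 het), each a group of 2 samples. The histone marks used here came from Ewsr1 CKO only, again 2 samples for each mark. The tables give 1 RPM value per group and site (read numbers scaled to library size), and how the samples were combined is not stated. No spread between animals could therefore be computed, and every comparison below describes the authors' columns without a p-value. The identity of the cells was not tested, since the files hold no expression values.

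In meiosis, PRDM9 binds DNA and places H3K4me3 and H3K36me3 on the neighbouring nucleosomes, and SPO11 then cuts some of the marked sites. The ends are resected, and DMC1 coats the single-stranded DNA, so DMC1 ChIP-seq marks break sites and the amount and persistence of repair intermediates there. EWSR1 is an RNA-binding protein of the FET family. Mouse autosomes are telocentric: the low-coordinate end lies at the centromere and the high-coordinate end is the free, distal telomere, a region known in male mice for frequent crossovers.

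DMC1 signal per site in Ewsr1 CKO was lower near the distal ends than in the interior of the autosomes, and most so within 2.5 Mb of the last listed end, where H3K4me3 of the same genotype was high. In that terminal stretch the median Ewsr1 CKO DMC1 value was 24.8 RPM at 196 sites, against 55.2 RPM at interior sites, 2.23-fold less. B6 was also lower there, 29.4 against 45.1 RPM, by 1.54-fold, and Prdm9 het by 1.42-fold, 6.15 against 8.72 RPM. H3K4me3 in Ewsr1 CKO was 1.38-fold higher, 1.23 against 0.892 RPM. These are medians over sites, which share libraries and are not replicates.

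Only a few distal sites overlapped the bases just before a gene start, and their sequences are the part of the hotspot DNA that the reference tables hold. The 250 bases before each RefSeq gene start (GRCm38.p6, the assembly behind the mm10 build named in the submitters' processing notes) touched 13 of the 605 distal sites on autosomes with such entries, 2.15%, against 1.74% of interior sites. Of the 13, 6 lay within 2.5 Mb of a distal end. Shown are stretches from 4 of the 6, chosen after their values were seen, because they span the range of Ewsr1 CKO over B6 ratios among the 6, from −1.22 to −0.03. The other 2 sites, with stretches of Gm33906 and Gm36613, had ratios of −0.43 and −0.58. The 4 printed stretches run 5′ to 3′ on the minus strand, with each CG dinucleotide, the base pair step that DNA methylation acts on, in capitals. CG reads the same on both strands, and 92.4% of all 31192 such autosomal windows hold at least 1.
Rgs19, chr2:181691818-181692067: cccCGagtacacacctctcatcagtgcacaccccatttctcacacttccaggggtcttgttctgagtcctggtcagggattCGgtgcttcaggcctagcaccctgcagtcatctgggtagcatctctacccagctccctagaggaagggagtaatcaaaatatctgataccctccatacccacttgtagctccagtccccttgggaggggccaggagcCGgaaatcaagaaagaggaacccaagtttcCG
Zbtb46, chr2:181424432-181424638: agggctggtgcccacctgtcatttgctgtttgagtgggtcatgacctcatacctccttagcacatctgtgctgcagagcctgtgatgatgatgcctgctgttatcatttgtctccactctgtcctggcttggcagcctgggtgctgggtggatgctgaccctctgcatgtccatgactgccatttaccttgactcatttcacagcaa
A330009N23Rik, chr15:101225187-101225436: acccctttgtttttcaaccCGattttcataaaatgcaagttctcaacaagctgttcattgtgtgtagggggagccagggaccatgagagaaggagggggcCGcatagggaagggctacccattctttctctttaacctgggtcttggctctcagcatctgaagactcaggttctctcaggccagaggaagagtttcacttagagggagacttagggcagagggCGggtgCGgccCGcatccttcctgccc
Krt2, chr15:101818170-101818419: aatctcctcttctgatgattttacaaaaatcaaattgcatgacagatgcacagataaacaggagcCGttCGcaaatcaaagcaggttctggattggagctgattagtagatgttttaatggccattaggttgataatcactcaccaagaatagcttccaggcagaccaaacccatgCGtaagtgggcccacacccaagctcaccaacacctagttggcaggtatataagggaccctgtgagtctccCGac

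The stretch before Rgs19, which encodes a regulator of G protein signalling, held 4 CG and lay in a site 0.123 Mb from the end with DMC1 of 11.1 RPM (B6), 4.17 RPM (Ewsr1 CKO) and 2.92 RPM (Prdm9 het) and H3K4me3 of 2.83 RPM. The stretch before Zbtb46, a zinc finger transcription factor, held no CG, and its site had 28.2, 12.0 and 4.80 RPM DMC1 and 2.85 RPM H3K4me3. In both sites the Ewsr1 CKO value was below that of B6, with log2 ratios of −1.22 and −1.16. On chromosome 15, the printed A330009N23Rik stretch held 5 CG, a second one of that gene in the same site, not printed, held 7, and the Krt2 (a keratin) stretch 4. The DMC1 values of their sites were 46.9 and 32.7 RPM (B6) against 35.4 and 31.9 RPM (Ewsr1 CKO), with log2 ratios of −0.40 and −0.03. Over all 14 such stretches in distal sites the number of CG ran from 0 to 7, with 11 holding at least 1.

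The level of each column was first followed along the chromosome, in bins of distance from the last listed end. B6 DMC1 had a median of 29.4 RPM within 2.5 Mb (quartiles 18.7 and 53.9 RPM), 44.2 RPM from 2.5 to 5 Mb and 55.2 RPM from 5 to 10 Mb. In Ewsr1 CKO the same bins had 24.8 RPM (quartiles 13.2 and 43.9 RPM), 40.4 RPM and 58.2 RPM. Prdm9 het gave 6.15 RPM (quartiles 2.53 and 9.97 RPM), 7.72 RPM and 10.5 RPM. All 3 genotypes were thus lowest next to the end, and the quartile ranges of the terminal and interior sites overlapped in each.

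From 2.5 to 5 Mb DMC1 was still below the interior, 1.37-fold in Ewsr1 CKO, 1.13-fold in Prdm9 het and 1.02-fold in B6. In B6 the bin from 5 to 10 Mb had a higher median than interior sites, by 1.22-fold, and in Prdm9 het by 1.21-fold. The corresponding value in Ewsr1 CKO was 1.05-fold. H3K4me3 in Ewsr1 CKO ran the other way, from 1.23 RPM within 2.5 Mb (quartiles 0.729 and 1.97 RPM) to 0.941 RPM and 0.884 RPM in the next bins, close to the interior 0.892 RPM. The lowest DMC1 and highest H3K4me3 medians of distal sites were both those of the last 2.5 Mb.

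**Figure D1:**
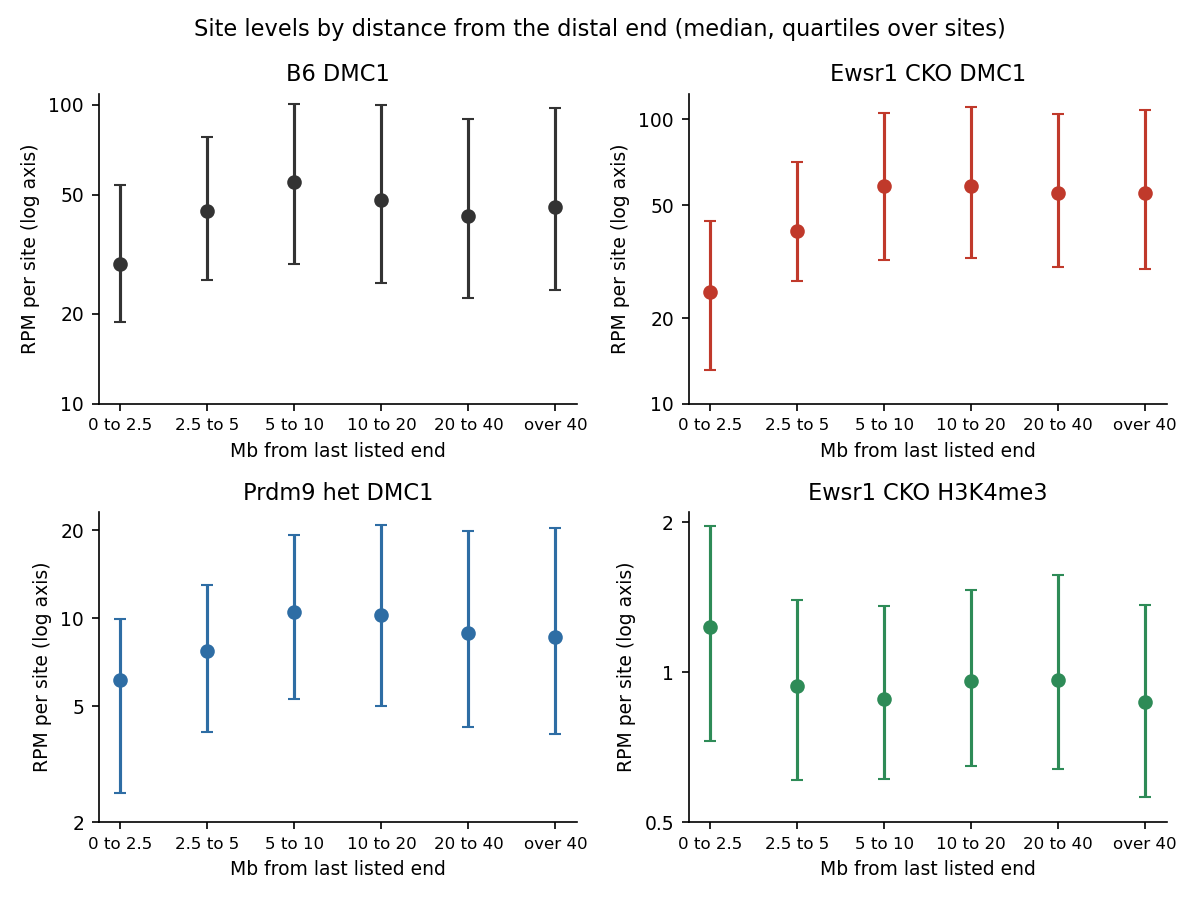
Each panel shows a column of the tables, with the median (point) and quartiles (bars) over sites in RPM on a log axis, by distance in Mb from the last listed end, for sites over 20 Mb from the first listed start. DMC1 is lowest within 2.5 Mb in B6 (29.4 RPM), Ewsr1 CKO (24.8 RPM) and Prdm9 het (6.15 RPM), while H3K4me3 is highest there (1.23 RPM).

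Taken over the whole 10 Mb, the levels differed less. The 641 distal sites had median DMC1 of 42.7 RPM (B6), 41.7 RPM (Ewsr1 CKO) and 7.95 RPM (Prdm9 het), against 45.1, 55.2 and 8.72 RPM at interior sites. As differences of median log2 levels, distal minus interior was −0.08 in B6 (−0.25 to 0.06), −0.40 in Ewsr1 CKO (−0.55 to −0.26) and −0.13 in Prdm9 het (−0.27 to −0.004). The ranges in parentheses are 95% order-statistic intervals of the distal median over sites, less the interior median taken as fixed. They treat sites as independent, which sites on a chromosome are not, and they leave out variation between animals. They are therefore not read as a test of the difference. Without the terminal 2.5 Mb the differences were 0.16 in B6, −0.11 in Ewsr1 CKO and 0.10 in Prdm9 het, so the sign of those of B6 and Prdm9 het rested on that stretch.

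Shares of the summed autosomal signal give the same picture without regard to a column's scale. Distal sites were 7.33% of autosomal sites. They took 6.06% of the B6 DMC1 signal, 5.35% of that of Ewsr1 CKO, 5.85% of that of Prdm9 het and 8.40% of the Ewsr1 CKO H3K4me3 signal. The terminal 2.5 Mb held 2.24% of the sites and took 1.28, 1.06 and 1.31% of the DMC1 signal of B6, Ewsr1 CKO and Prdm9 het. Of H3K4me3 it took 3.14%, more than its share of sites.

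Site density is partly set by the rule, since each window starts at the last listed site of its autosome. The 10 Mb held 3.37 sites per Mb, against 3.80 in the interior, with 4.13 in the terminal 2.5 Mb, 3.03 in the next 2.5 Mb and 3.17 from 5 to 10 Mb. Without the 19 last listed sites the terminal stretch held 3.73 sites per Mb, so no excess of sites is read there. Per Mb of chromosome, summed B6 DMC1 was 193 RPM in the terminal bin and 308 RPM in the interior, and summed Ewsr1 CKO DMC1 was 170 and 332 RPM. Summed H3K4me3 per Mb was 6.43 RPM in the terminal bin and 4.27 RPM in the interior, and these sums include the last listed sites. Distal sites were slightly narrower, with a median width of 2435 bp against 2519 bp.

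The next comparison asked how DMC1 at distal sites differed between Ewsr1 CKO and B6, relative to the rest of the chromosome. On the log2 scale of RPM + 1, Ewsr1 CKO over B6 had a median ratio of −0.05 at distal sites (quartiles −0.37 and 0.285) and 0.18 at interior sites (quartiles −0.09 and 0.49). The difference was −0.22 (95% order-statistic range −0.29 to −0.18), or 1.17-fold. It was −0.14 without the terminal 2.5 Mb. Ewsr1 CKO was below B6 at 347 of 641 distal sites (54.1%) and at 2021 of 6145 interior sites (32.9%), against 3012 of all 8744 autosomal sites (34.4%). Over all autosomal sites the summed signal was 300.1 RPM per Mb for B6 and 322 RPM per Mb for Ewsr1 CKO, so only the contrast between site classes is read here and not the level of the ratio.

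Within 20 Mb of the end the ratio was lower in each bin closer to it. It was 0.05 from 5 to 10 Mb, 0.0074 from 2.5 to 5 Mb and −0.32 within 2.5 Mb (quartiles −0.72 and 0.10). From 10 to 20 Mb it was 0.21, from 20 to 40 Mb 0.26 and beyond 40 Mb 0.15, so it was not higher still farther in. In the terminal bin Ewsr1 CKO was below B6 at 139 of 196 sites (70.9%, Wilson 95% interval 64.2 to 76.8%, counting error only), against the 34.4% of all autosomal sites. Across the 641 distal sites the ratio had a Spearman's rho of 0.32 with distance from the end, as a description across sites of shared libraries.

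Sites whose ratio lay over 1.5-fold below the interior median were then counted. Of all 8744 autosomal sites, 7.04% met this rule. Among distal sites it was 151 of 641 (23.6%), among interior sites 363 of 6145 (5.91%) and among proximal sites 48 of 659 (7.28%). By distance the count was 90 of 196 (45.9%) within 2.5 Mb, 25 of 144 (17.4%) from 2.5 to 5 Mb and 36 of 301 (12.0%) from 5 to 10 Mb. In the opposite direction, over 1.5-fold above the interior median, the background was 10.8% and distal sites numbered 33 (5.15%). Distal sites were thus above the background on the low side and below it on the high side.

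Very low ratios were mostly distal, although the lowest of all, −2.76, was at an interior site. A log2 ratio under −1 was found at 40 of all 8744 autosomal sites. These included 31 of the 641 distal and 7 of the 6145 interior sites. Of the 31, 28 lay within 2.5 Mb of the last listed end. The 31 lay on 10 autosomes, most of them on chromosomes 2, 7, 11, 16 and 19. Their Ewsr1 CKO DMC1 values went down to 3.44 RPM.

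**Figure D2:**
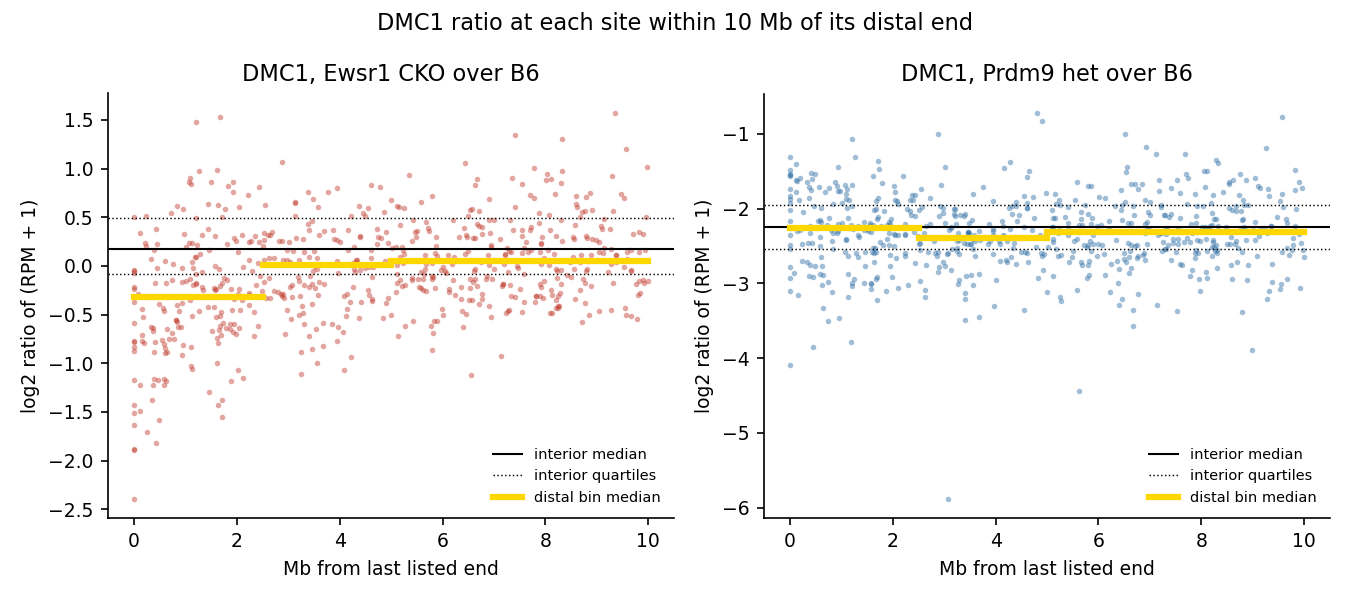
Each point is a distal site, with its distance in Mb from the last listed end on the x axis and its DMC1 log2 ratio of RPM + 1 on the y axis, for Ewsr1 CKO over B6 (left) and Prdm9 het over B6 (right). Black lines mark the interior median and quartiles and yellow bars the medians of the 3 distal bins, which are −0.32 within 2.5 Mb on the left and near the interior median of −2.25 on the right.

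Prdm9 het over B6 shares the B6 column with the ratio above, so its values are given beside it and not as separate support. The median log2 ratio was −2.32 at distal sites (quartiles −2.60 and −1.99) and −2.25 at interior sites (quartiles −2.54 and −1.95), a difference of −0.07 (−0.10 to −0.03). These levels include the far lower sum of the Prdm9 het column, which the contrast between sites does not use. Within 2.5 Mb the ratio was −2.26, from 2.5 to 5 Mb −2.40 and from 5 to 10 Mb −2.31. Spearman's rho with distance was −0.0008 across the 641 sites. The bins of this ratio thus lay within 0.15 of the interior median, without the low terminal value of Ewsr1 CKO over B6. The difference between the 2 ratios is the comparison of Ewsr1 CKO with Prdm9 het.

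Counts of sites showed a smaller excess. Over 1.5-fold below the interior median lay 87 distal sites (13.6%), against a background of 10.2%, and over 1.5-fold above it 54 sites (8.42%), against 9.77%. Within 2.5 Mb the shares were 16.8% and 11.2%. Proximal sites had a higher share below, 22.5%, and a lower median ratio, −2.43. No distal site had more DMC1 in Prdm9 het than in B6, and only 10 of all 8744 autosomal sites did (0.114%). Under 1 RPM in Prdm9 het were 11 distal sites (1.72%), against 2.46% of all autosomal sites.

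Comparing Ewsr1 CKO with Prdm9 het directly leaves the B6 column out. The median log2 ratio was 2.30 at distal and 2.46 at interior sites, a difference of −0.17 (−0.22 to −0.12). It was 2.03 within 2.5 Mb, 2.38 from 2.5 to 5 Mb and 2.35 from 5 to 10 Mb. Over 1.5-fold below the interior median lay 152 distal sites (23.7%), against a background of 13.4%, and in the terminal bin 87 of 196 (44.4%). Above it lay 60 (9.36%), against 13.1%. Ewsr1 CKO was thus low near the ends beside either of the other columns.

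**Figure D3:**
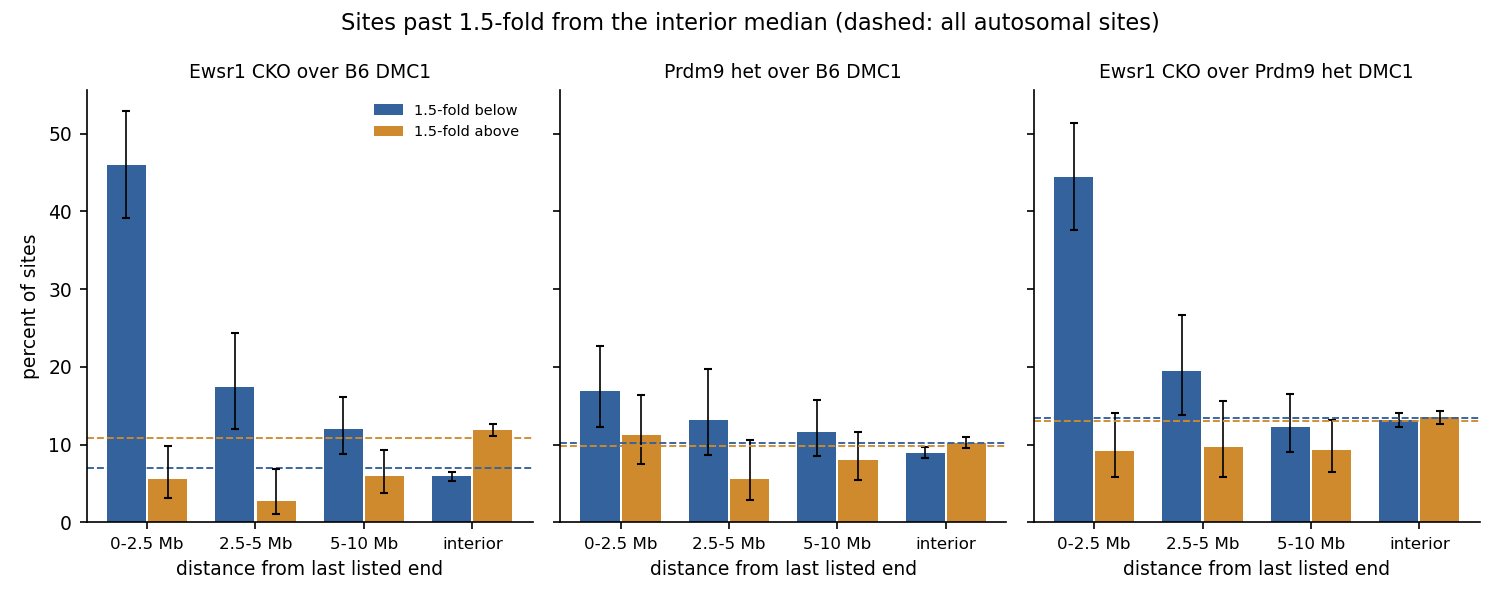
Bars show the percent of sites whose log2 ratio lay over 1.5-fold below (blue) or above (orange) the interior median, by distance from the last listed end and for interior sites, with Wilson 95% intervals. Dashed lines give the percent over all 8744 autosomal sites. For Ewsr1 CKO over B6 the blue bar reaches 45.9% within 2.5 Mb, against 5.91% in the interior, and for Prdm9 het over B6 it is 16.8%.

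The autosomes were then taken singly, since sites on a chromosome are not independent. Distal sites had a lower median Ewsr1 CKO over B6 ratio than interior sites on 16 of 19 autosomes. The differences ran from −0.78 on chromosome 16 to 0.06 on chromosome 13. The share of sites over 1.5-fold below the interior median of all autosomes was higher among distal than interior sites on 19 of 19 autosomes. For the terminal 2.5 Mb, with 2 to 16 sites per autosome, this held on 14 of 19, and the other 5 (chromosomes 4, 9, 13, 17 and 18) had no such site there. On chromosome 16 all 12 terminal sites were below the line, on chromosome 7 10 of 11 and on chromosome 11 9 of 11.

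In the terminal 2.5 Mb, 4 autosomes (3, 13, 17 and 18) had higher ratios than their interior. On chromosome 13 the 10 terminal sites had a median Ewsr1 CKO over B6 ratio 0.44 above the interior of the same chromosome, and on chromosome 17 the 9 terminal sites were 0.62 above. DMC1 per H3K4me3 was 1.40 log2 units above the interior on chromosome 13 and differed by −0.17 on chromosome 17. For Prdm9 het over B6 the 10 Mb difference was below 0 on 14 autosomes and ran from −0.36 on chromosome 17 to 0.18 on chromosome 14. In the terminal 2.5 Mb it was below 0 on 10 autosomes and above 0 on 9. Median DMC1 levels of the terminal sites were below the interior of the same chromosome on 17 of 19 autosomes in B6, on 16 in Ewsr1 CKO and on 17 in Prdm9 het. Terminal H3K4me3 was above it on 12 of 19, from −0.90 log2 units on chromosome 17 to 1.59 on chromosome 7.

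**Figure D4:**
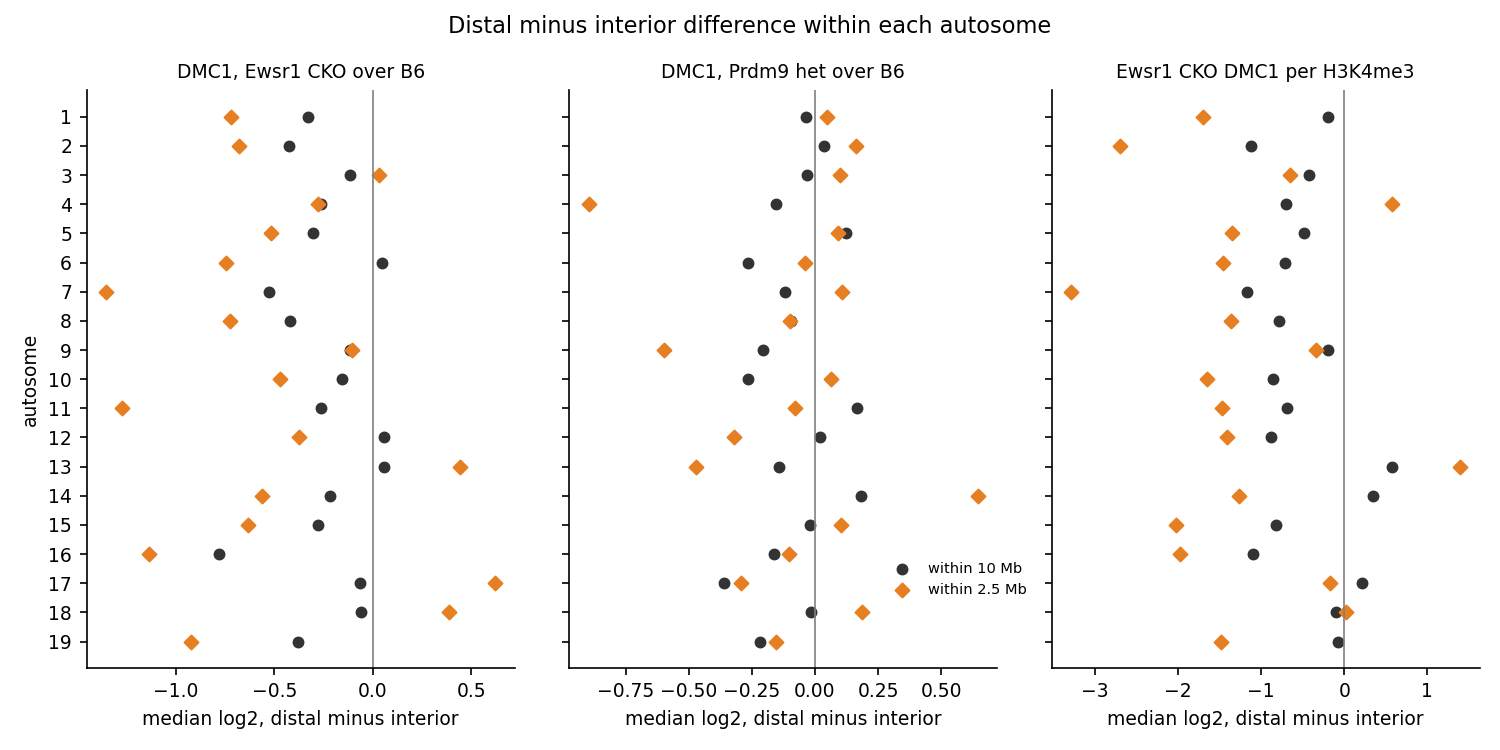
For each of the 19 autosomes (y axis) the points give the difference in median log2 value between distal and interior sites, for sites within 10 Mb (black circles) and within 2.5 Mb (orange diamonds) of the last listed end. Differences of Ewsr1 CKO over B6 (left) are below 0 on 16 autosomes for 10 Mb and on 15 for 2.5 Mb, those of Prdm9 het over B6 (middle) lie on both sides of 0, and DMC1 per H3K4me3 (right) is below 0 on 16 autosomes in both windows.

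H3K4me3 is the mark that PRDM9 leaves before a break, so DMC1 was also set against it within Ewsr1 CKO. The median of log2(DMC1 + 1) minus log2(H3K4me3 + 1) was 4.37 at distal and 4.79 at interior sites, a difference of −0.42 (−0.55 to −0.31). Within 2.5 Mb it was 3.41, from 2.5 to 5 Mb 4.36 and from 5 to 10 Mb 4.91. Over 1.5-fold below the interior median lay 289 distal sites (45.1%), against a background of 29%, and 144 of the 196 terminal sites (73.5%). Over 1.5-fold above it lay 142 distal sites (22.2%), against 33.2%. Without the terminal stretch the 10 Mb difference was −0.050. On this RPM + 1 scale, DMC1 relative to H3K4me3 in Ewsr1 CKO was thus 2.62-fold lower at terminal than at interior sites. The added 1 RPM is larger than the interior median of H3K4me3, 0.892 RPM, so this is not a plain DMC1 to H3K4me3 ratio.

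The relation between mark and DMC1 was also described across sites. Spearman's rho between H3K4me3 and DMC1 in Ewsr1 CKO was 0.16 over 641 distal sites and 0.48 over 6145 interior sites. With B6 DMC1 it was 0.30 and 0.54, and with Prdm9 het DMC1 0.41 and 0.57. Over the 196 terminal sites alone the coefficients were 0.15 with Ewsr1 CKO, 0.43 with B6 and 0.58 with Prdm9 het, so that of Prdm9 het was no lower there than in the interior. These coefficients describe sites of shared libraries and carry no p-value. Sites above the upper quartile of autosomal H3K4me3 (at least 1.39 RPM) and under the lower quartile of Ewsr1 CKO DMC1 (under 30.2 RPM) numbered 56 among distal sites (8.74%) and 131 among interior sites (2.13%), against 211 of all 8744 autosomal sites (2.41%). Of the 56, 40 lay within 2.5 Mb of the end.

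Each terminal site was also compared with the 20 interior sites closest to it in Ewsr1 CKO H3K4me3, a comparison chosen after the values were seen. At like H3K4me3, the median terminal site had 1.83-fold less DMC1 in B6, 2.57-fold less in Ewsr1 CKO and 2.02-fold less in Prdm9 het, on the RPM + 1 scale. DMC1 relative to the Ewsr1 CKO H3K4me3 column was thus low at the ends in all 3 genotypes. The log2 ratio of Ewsr1 CKO over B6 differed by −0.43 at like H3K4me3 and by −0.58 at like mean DMC1 of both genotypes. The ratio of Prdm9 het over B6 differed by −0.05 at like H3K4me3.

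Among distal sites, as among interior sites, those rich in H3K4me3 had the lower Ewsr1 CKO over B6 ratios. In the terminal 2.5 Mb the 84 sites above the upper autosomal quartile of H3K4me3 had a median ratio of −0.63, and Ewsr1 CKO was below B6 at 72 of them (85.7%). The other 112 had a median of −0.13, with 67 lower (59.8%). Interior sites split the same way gave −0.0002 and 0.24, with Ewsr1 CKO lower at 790 of 1576 (50.1%) and 1231 of 4569 (26.9%), so the lower ratio at sites rich in H3K4me3 was also seen in the interior. The terminal sites were therefore lower than interior sites in both H3K4me3 classes.

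A listed H3K4me3 site, from the authors' table of H3K4me3 sites shared between genotypes, overlapped 382 of 641 distal DMC1 sites (59.6%, Wilson 95% interval 55.7 to 63.3%). The share was 57.1% in the interior, 44.6% among proximal sites and 55.9% over all autosomal sites, which lies within the distal interval. In the terminal bin it was 68.9% (135 of 196, Wilson 62.1 to 74.9%). Seen from the H3K4me3 list, 382 of 462 distal H3K4me3 sites (82.7%) and 3513 of 3878 interior ones (90.6%) overlapped a DMC1 site. Within 2.5 Mb this was 135 of 181 (74.6%), the lowest share of the stretches compared.

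H3K36me3, the other mark that PRDM9 places, followed H3K4me3 only in part. At listed H3K4me3 sites that overlapped a DMC1 site, median H3K36me3 in Ewsr1 CKO was 1.37 RPM at 382 distal and 1.504 RPM at 3513 interior sites. It was 1.68 RPM at the 135 terminal ones and 1.24 RPM at those from 2.5 to 10 Mb. The corresponding H3K4me3 values of that table were 1.05, 1.05, 1.31 and 0.924 RPM. Distal H3K36me3 was above interior H3K36me3 on 8 of 19 autosomes. Per site, both marks were thus above their interior medians in the last 2.5 Mb and below them from 2.5 to 10 Mb. The sites from 2.5 to 10 Mb were narrower, with a median width of 1605 against 1828 bp in the interior. Per kb, median H3K4me3 there was 0.595 against 0.588 RPM in the interior, and H3K36me3 0.733 against 0.811 RPM. In the last 2.5 Mb the values per kb were 0.705 RPM (H3K4me3) and 0.914 RPM (H3K36me3).

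The last listed site of each autosome shows the pattern at single sites. Over these 19 sites DMC1 ran from 10.3 to 171 RPM in B6 (median 29.5 RPM), from 4.66 to 164 RPM in Ewsr1 CKO (median 16.2 RPM) and from 0.666 to 50.8 RPM in Prdm9 het (median 5.41 RPM). H3K4me3 ran from 0.138 to 8.75 RPM (median 1.40 RPM). The lowest Ewsr1 CKO over B6 ratio of all distal sites, −2.39, was at the last site of chromosome 11, with 33.8 RPM in B6 and 23 read steps in Ewsr1 CKO (5.65 RPM). Over the 19 the ratio had a median of −0.78 and was below the interior median at 18 of 19. The 4 autosomes with the most distal sites (chromosome 6 with 48, and chromosomes 13, 15 and 17 with 41 each) are given singly.

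On chromosome 6 the last site lay at 149429273 to 149431595 in Bicd1, which encodes a dynein adaptor, with DMC1 of 28.6 RPM (B6), 18.7 RPM (Ewsr1 CKO) and 9.03 RPM (Prdm9 het) and H3K4me3 of 2.505 RPM. Values at the next sites follow the same order. On chromosome 15 it lay at 103464405 to 103466629 in Nckap1l, with 29.5, 12.5 and 8.14 RPM DMC1 and 1.47 RPM H3K4me3. Chromosome 17 ended at 93280027 to 93281218 with 12.5, 11.8 and 2.01 RPM and 0.405 RPM H3K4me3. On chromosome 13 the site at 119268491 to 119271029 had 19.4, 28.0 and 1.37 RPM and 0.923 RPM H3K4me3, and was the exception with more DMC1 in Ewsr1 CKO than in B6. Coordinates here are on the mm10 build, and gene spans are those of RefSeq, with exons and introns not assigned.

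**Figure D5:**
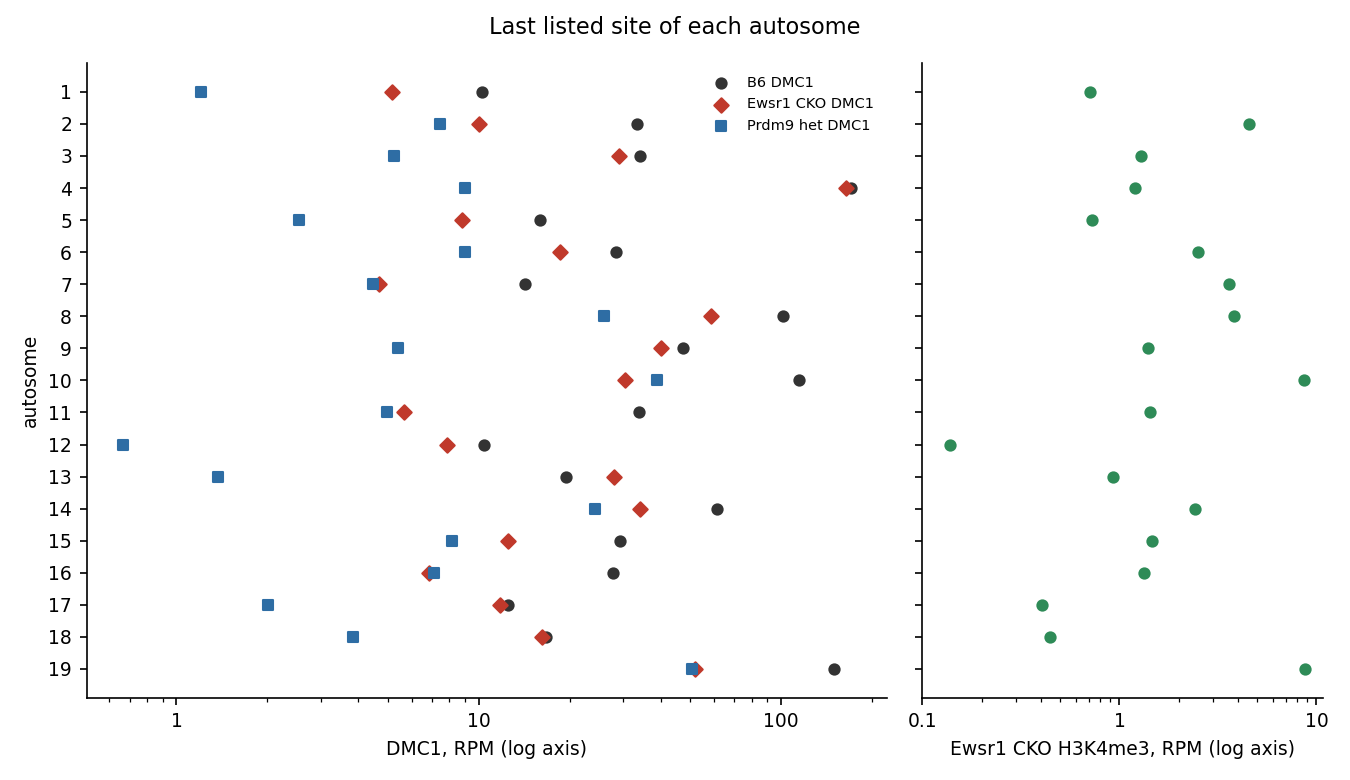
For the last listed site of each autosome (y axis), the left panel gives DMC1 in RPM on a log axis for B6 (circles), Ewsr1 CKO (diamonds) and Prdm9 het (squares), and the right panel gives H3K4me3 of Ewsr1 CKO in RPM on a log axis. Ewsr1 CKO is to the left of B6 on every autosome but chromosome 13, and on chromosomes 10 (30.4 against 38.9 RPM) and 16 (6.87 against 7.11 RPM) it is also to the left of Prdm9 het.

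The following sites were singled out by their ratios among the 266 distal sites of at least median mean DMC1. For these sites the reads behind a value can be judged, because the B6 and Ewsr1 CKO columns lie on common steps of 0.129 and 0.246 RPM. If a step is 1 read, the median sampling error of the log2 ratio was 0.14 at distal and 0.12 at interior sites, and 0.17 in the terminal bin, where medians of 228.5 and 101 reads lay behind the values. This covers read counting only. The spread of the ratio over sites, 0.49 at distal sites (interquartile range rescaled to a standard deviation), was wider.

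Among these 266 sites the lowest Ewsr1 CKO over B6 ratios were at the very ends of chromosomes 10 and 19 and near that of chromosome 16. At chromosome 10, 130542171 to 130544985, nearest to the vomeronasal receptor gene Vmn2r87, DMC1 stood at 115 RPM (B6), 30.4 RPM (Ewsr1 CKO) and 38.9 RPM (Prdm9 het). Its log2 ratio was −1.89, with 0.14 of sampling error. The site at chromosome 19, 61151791 to 61154940, nearest to Zfp950, had 150, 52.0 and 50.8 RPM, a log2 ratio of −1.51. The site at chromosome 16, 97542212 to 97545176, nearest to Tmprss2, a membrane serine protease gene, had 89.4, 37.8 and 26.7 RPM, a log2 ratio of −1.22. H3K4me3 at these sites was 8.67, 8.75 and 2.72 RPM, and the first pair were the distal sites with the most H3K4me3. Neither of that pair overlapped a listed H3K4me3 site.

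High Ewsr1 CKO over B6 ratios, over 1.5-fold above the interior median, occurred in every distal bin but below the background of 10.8%. They were found at 11 of the 196 terminal sites (5.61%), 4 of the 144 sites from 2.5 to 5 Mb (2.78%) and 18 of the 301 sites from 5 to 10 Mb (5.98%). A pair on chromosome 19 lay far from genes. At chromosome 19, 51802637 to 51805594, 458703 bp from the insulin gene Ins1, DMC1 stood at 95.8 RPM (B6) and 287 RPM (Ewsr1 CKO). Its log2 ratio was 1.57, with 0.068 of sampling error. At chromosome 19, 51181556 to 51184177, near Sorcs1, the values were 62.4 and 127 RPM and the ratio 1.01.

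For Prdm9 het over B6, the lowest ratio was at chromosome 14, 121519007 to 121521429, near Slc15a1, a peptide transporter gene. The B6, Ewsr1 CKO and Prdm9 het columns there held 77.5, 61.9 and 0.336 RPM, and the log2 ratio was −5.88. The last site of chromosome 4, at 155524457 to 155527521 in Gnb1, a G protein beta subunit gene, had 171, 164 and 9.03 RPM, a ratio of −4.10. A site in Plekha5 on chromosome 6, at 140441362 to 140444250, had 67.5, 81.3 and 3.62 RPM, a ratio of −3.89. At these 3 sites Ewsr1 CKO over B6 lay between −0.32 and 0.26.

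The highest ratios of Prdm9 het over B6 were at chromosome 4, 150623938 to 150626505, near Rere, with 54.7 RPM (B6) and 30.4 RPM (Prdm9 het), a log2 ratio of −0.83, and at the last site of chromosome 14, in Fgf14 at 124595107 to 124597695, with 61.7 and 24.3 RPM (−1.31). A site on chromosome 18, 1.26 Mb from the last listed end, followed with 33.6 and 12.9 RPM (−1.32). In Ewsr1 CKO these sites had 70.0, 34.1 and 66.8 RPM. The Fgf14 site alone of the 3 was lower in Ewsr1 CKO than in B6.

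For Ewsr1 CKO over Prdm9 het the highest ratio was again at the Slc15a1 site. Next came sites in Cmas, a sialic acid activating enzyme gene (chromosome 6, 142764811 to 142766977), and in Smc3, a cohesin subunit gene (chromosome 19, 53617526 to 53619596). Ewsr1 CKO DMC1 there was 81.8 and 108 RPM and Prdm9 het DMC1 3.36 and 4.87 RPM. The lowest ratios were at the ends of chromosomes 10 and 19 named above and in Klhdc4 (chromosome 8, 121820072 to 121822515), with 73.9 RPM (Ewsr1 CKO), 59.0 RPM (Prdm9 het) and 162 RPM (B6). As deposited, 5 distal sites had less DMC1 in Ewsr1 CKO than in Prdm9 het, although the Prdm9 het column is far lower in sum. That was 0.780% of distal sites, against 0.126% of all autosomal sites (11 of 8744), of which 5 were interior and 1 proximal. The distal ones lay on chromosomes 2, 7, 10 and 16, all within 2.5 Mb of the end.

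The distal sites with the most B6 DMC1 were not at the very ends. A site in St8sia1, a ganglioside sialyltransferase gene, at chromosome 6, 142860572 to 142863561, had DMC1 of 502 RPM (B6), 395 RPM (Ewsr1 CKO) and 90.3 RPM (Prdm9 het). A site on chromosome 18, 7.96 Mb from the last listed end, had 502, 400 and 64.4 RPM. A site in Plekha5 at chromosome 6, 140589955 to 140593079, had 461, 325 and 93.7 RPM and 8.27 RPM H3K4me3, the third highest H3K4me3 among distal sites. All 3 lay more than 6 Mb from the end, with Ewsr1 CKO over B6 ratios of −0.35, −0.33 and −0.50.

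At the 10 Mb border of chromosome 6, the 2 members farthest from the end, both in Plekha5 at 8.99 and 8.84 Mb, had Ewsr1 CKO over B6 ratios of 0.26 and −0.50. The first 2 sites outside, at 10.3 and 10.7 Mb, had B6 values of 94.1 and 105 RPM, Ewsr1 CKO values of 161 RPM each and ratios of 0.77 and 0.61. Proximal ends shared part of the lower ratio. Their median Ewsr1 CKO over B6 ratio was 0.08, between the distal −0.05 and the interior 0.18, and Ewsr1 CKO was below B6 at 41.0% of proximal sites. The share over 1.5-fold above the interior median was 7.28%, against 11.8% in the interior. Their median levels were H3K4me3 0.752 RPM and DMC1 62.0 RPM (B6) and 67.3 RPM (Ewsr1 CKO).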

How the data were processed

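ChIP-seq of spermatocytes was deposited as a pair of tables. Per the file headers the deposited values are RPM. Over all listed sites the B6 and Ewsr1 CKO DMC1 columns summed to almost the same total, 867788 and 867820 RPM. Per the submitters' processing notes Trimmomatic 0.32, BWA 0.5.10 and mm10 were used. The peak caller, the counting, the RPM denominator and the merging of replicates are not given in the sources used here. Samples were grouped by title, and 6 columns were used, each as the authors' value of a group. The remaining 4 columns have no matching sample here and stayed out, which leaves H3K4me3 without a B6 reference. Inputs and Prdm9 Set-KO samples (8 samples) were not analysed here. The H3K4me3 table's 5787 lines gave 5567 distinct sites after averaging repeats.

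Log2 ratios used a pseudocount of 1 RPM, which understates changes of low sites, and DMC1 columns of B6 and Ewsr1 CKO were whole multiples of a step for 100% of sites (tolerance 0.02 of a step). With 1 value per group, no test was made. Intervals are Wilson or order-statistic 95% intervals over sites. The first cover counting error, the second the uncertainty of a median with sites taken as independent, and neither covers variation between animals. A call was a log2 ratio over 1.5-fold from the interior median. Overlaps needed at least 1 bp. The members, bins and lists were chosen with earlier results of these data known. Named sites were, per ratio, the 3 highest and 3 lowest among distal sites with mean DMC1 at or above the autosomal median, the 3 with the most B6 DMC1 and the 3 with the most H3K4me3, the last listed sites, and those at the 10 Mb border; 1 site this rule names is not reported here. Alternatives were other windows, scalings, pseudocounts, filters, matching and leaving out autosomes. The calculations were tested on simulated data. Calculations used pandas 2.3.3, numpy 2.4.6 and statsmodels 0.14.6 under Python 3.11.15, and plots matplotlib 3.10.9.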

Additional observations from a re-analysis of the deposited data

How the results depend on the processing

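Of 113 recomputed values 92 stayed within the interval of the main one, 19 moved beyond it and 2 reversed. With 5 Mb the distal minus interior difference was −0.36 for Ewsr1 CKO over B6, −0.24 for Ewsr1 CKO over Prdm9 het, −0.95 for DMC1 per H3K4me3, and −0.41, −0.80 and −0.38 for the levels of B6, Ewsr1 CKO and Prdm9 het DMC1. With 15 Mb it was −0.12 for Ewsr1 CKO over B6, −0.027 for Prdm9 het over B6, −0.24 for DMC1 per H3K4me3 and −0.23 for the Ewsr1 CKO level. Without the terminal 2.5 Mb, an alternative added after seeing the data, the levels of B6 and Prdm9 het DMC1 reversed to 0.16 and 0.098. In the same setting the differences were −0.14 for Ewsr1 CKO over B6, −0.11 for Ewsr1 CKO over Prdm9 het, −0.050 for DMC1 per H3K4me3, −0.11 for the Ewsr1 CKO level and 0.021 for H3K4me3, and 55.5% of distal sites overlapped a listed H3K4me3 site. Without sites under the lower quartile of mean DMC1 that share was 64.4% and DMC1 per H3K4me3 −0.27. The median of within-autosome differences of DMC1 per H3K4me3 was −0.68. Leaving out each autosome in turn gave −0.24 to −0.20 for Ewsr1 CKO over B6, and scaling, pseudocount and matching on DMC1 gave −0.23 to −0.20. Counting calls from the median of all autosomal sites, also added after seeing the data, gave 22.8% of distal sites low for Ewsr1 CKO over B6, in place of 23.6%. No paired analysis was possible because each column gives a group as 1 value. For that reason no replicate was left out, and matching on GC was not run since no genome was used. The read number behind the Prdm9 het and H3K4me3 columns is unknown.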

Other observations

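Distal ends were richer in genes than the interior, with 10.2 protein-coding RefSeq genes per Mb within 10 Mb and 11.9 within 2.5 Mb, against 8.52 in the interior. The bases before gene starts had a median GC share of 53.6% within 10 Mb, 55.2% within 2.5 Mb and 52.4% in the interior. The part of gene density and base composition in the distal values was not tested. DMC1 sites lay in a protein-coding gene in 367 of 641 distal cases (57.3%) and 3329 of 6145 interior cases (54.2%).

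Sites in genes had lower Ewsr1 CKO over B6 ratios than sites outside them, in both classes. The median was −0.14 at 367 distal sites in genes and 0.06 at the 274 outside. In the interior the values were 0.10 and 0.28. Distal sites were lower than interior sites on each side of this split.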
